A study of Homo sapiens with 13 samples.

Results

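The 10 antioxidant genes described here are NFE2L2, which encodes the transcription factor NRF2, and 9 enzymes and carriers that NRF2 is known to induce or that remove superoxide and hydrogen peroxide: NQO1, HMOX1, GCLC, GCLM, TXN, TXNRD1, SOD1, SOD2 and CAT. A probe belongs to the set by its gene name alone, but the names were listed with earlier results of these data known. They are 10 of 25940 gene names on the array. Each gene had exactly 1 probe among the 34127 probes of the array, so the set holds 10 probes. RNA came from CCRF-CEM, a cell line from a human T cell acute lymphoblastic leukemia. Parental cells (CEM PA) and a population grown in rising FK866 concentrations until it was resistant to 100 nM (CEM RES) were exposed for 48 h to 5 nM FK866 or to DMSO (mock). By the study's methods, the resistant cells were otherwise cultured with 100 nM FK866 in their medium. CEM RES mock cells therefore had a history of the drug, and the 5 nM dose was below that of their routine culture. Whether the drug was removed some time before the mock exposure is not stated there. FK866 inhibits NAMPT, the enzyme that recycles nicotinamide into NAD+. The 13 arrays held 3 CEM PA mock, 2 CEM PA FK866, 4 CEM RES mock and 4 CEM RES FK866 samples, which the labels call biological replicates. All CEM RES samples derive from the same selected population, so the difference between the lines is that of 1 selection.

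NRF2 is a leucine zipper factor that is held in the cytoplasm and destroyed through KEAP1 and CUL3 while the cell is unstressed. Once oxidants or electrophiles modify KEAP1, NRF2 enters the nucleus, pairs with small MAF proteins and binds antioxidant response elements near its targets. These targets make and recycle glutathione, reduce thioredoxin, degrade heme and supply NADPH, a reductant of the same pyridine nucleotide pool that FK866 depletes. NRF2 is controlled mainly at the level of its protein, which an array does not measure.

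The probes are shown where the reading of a result depends on what the probe binds. All 60-base probes are written 5′ to 3′ in lower case, with coordinates of the array design on hg19.
NFE2L2 probe, chr2:178095693-178095752, minus strand: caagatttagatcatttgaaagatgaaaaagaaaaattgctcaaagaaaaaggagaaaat
TXN probe, chr9:113006449-113007066, minus strand: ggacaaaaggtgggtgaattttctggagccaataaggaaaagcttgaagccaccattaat
TXNRD1 probe, chr12:104732949-104733008, plus strand: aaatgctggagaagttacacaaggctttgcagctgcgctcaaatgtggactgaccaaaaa
SOD2 probe, chr6:160103590-160103649, minus strand: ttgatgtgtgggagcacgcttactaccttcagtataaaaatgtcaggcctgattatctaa
The NFE2L2 probe is shown because it gave no measurable signal, and 25.0% of its bases are G or C against a median of 43.3% over all 34127 probes. Only 0.8% of the probes had a lower share. The TXN probe covers 618 bases of the genome with 60 bases, which places it across an exon junction. The TXNRD1 and SOD2 probes are shown because their genes differed most between arrays of CEM PA and most reliably between the lines. The other 6 probes lie at chr16:69744274-69744333 for NQO1, chr22:35790122-35790181 for HMOX1, chr6:53362197-53362256 for GCLC, chr1:94352810-94352869 for GCLM, chr21:33040890-33040949 for SOD1 and chr11:34493034-34493093 for CAT. Whether these positions are coding or untranslated is not given in the sources used here. The GCLM probe shared a run of 20 bases with 1 probe of another gene, and none of the other 9 probes shared such a run with any probe of the array. HMOX1 and CAT were spotted 10 times on each array and the others once.

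The antioxidant response element was searched as TGACNNNGC on both strands, from 250 bases before to 50 bases after each RefSeq start on GRCh38.p14. Promoters were given for 8 of the 10 genes, 13 starts in all. None was given for HMOX1 or SOD1, so neither was searched. Of the 13 starts, 3 held the motif, 1 of GCLM and 2 of TXNRD1. Of all 35116 promoters, 13.3% held it. The matches are written below with the motif in capitals and 10 bases on each side, along the strand that reads TGAC first.
GCLM, chr1:93909446-93909474, plus strand: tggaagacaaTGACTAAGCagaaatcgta
TXNRD1, chr12:104215670-104215698, plus strand: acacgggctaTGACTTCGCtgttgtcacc
TXNRD1, chr12:104215761-104215789, minus strand: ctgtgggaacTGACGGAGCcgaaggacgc
TXNRD1, chr12:104286920-104286948, minus strand: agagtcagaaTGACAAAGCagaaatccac
A match describes the letters of this window and is not a binding site. The absence of a match for the other genes searched says only that these letters are not within it.

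Each array carried 43118 gene spots, of which 26457 to 33239 were well above background. The 10 T-lineage markers listed, among them CD3D, CD4, CD7 and LCK, were well above background on all 13 arrays. Of 8 B-lineage, myeloid and epithelial markers, 5 were kept, among them the B-cell gene CD79A (log2 signal 10.76 to 11.82), while MPO and EPCAM were not and LYZ had no probe by that name. The 5 CEM PA arrays were scanned in sessions 1 and 2 and the 8 CEM RES arrays together in session 3. Line and scan session therefore cannot be told apart, while FK866 and mock shared every session. In RNA from a whole culture, a change in the share of cells and a change in RNA per cell cannot be told apart either.

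NFE2L2 itself was not well above background on any of the 13 arrays. Its quantile normalised log2 signal was 1.01, 1.55 and 0.89 on the CEM PA mock arrays and 0.94 and 1.89 on the CEM PA FK866 arrays. In CEM RES it was 3.71, 2.13, 2.15 and 1.65 under mock and 0.91, 2.55, 0.91 and 1.90 under FK866. All 13 values are background, so this probe gives no level of NFE2L2 mRNA and no test was made. The 9 other probes passed the filter, which asked for signal well above background on all arrays of at least 1 group, and all results below are over these 9.

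**Figure D1:**
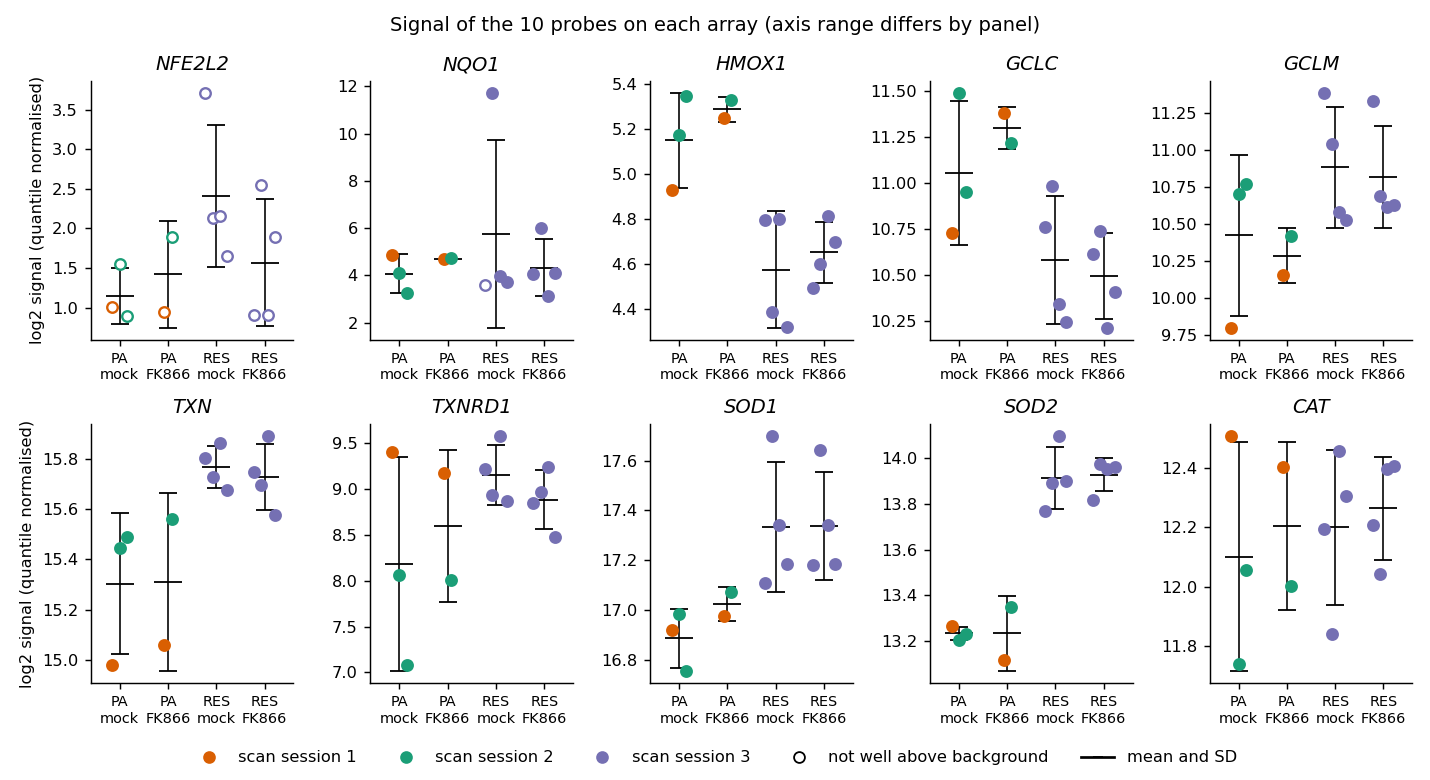
Log2 signal (quantile normalised) of each of the 10 probes on each of the 13 arrays, by line and treatment, with the mean and SD of each group and the scan session as the colour. Open points were not well above background, which holds for all 13 NFE2L2 values. SOD2 was higher on every CEM RES array (13.77 to 14.10) than on every CEM PA array (13.12 to 13.35), and the single NQO1 value at 11.72 is that of CEM RES mock replicate 2.

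The first question was whether FK866 changed these genes in sensitive cells. None of the 9 probes passed the test in CEM PA, against 1.53% of all 22751 probes tested (348 probes, limma, adjusted p under 0.05). None passed the study's double threshold either (absolute log2 fold change over 0.75 and unadjusted p under 0.05), which 6.69% of all probes passed, and none had an unadjusted p under 0.05 (14.4% of all probes). The median log2 fold change of the 9 probes was 0.14, beside -0.0030 over all probes tested.

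GCLC and GCLM encode the catalytic and the modifier subunit of the enzyme that makes the first and limiting step of glutathione synthesis. GCLC had log2 signals of 10.73, 11.49 and 10.95 on the CEM PA mock arrays and 11.38 and 11.22 on the FK866 arrays. The FK866 values lay inside the mock range, with a log2 fold change of 0.24 (SE 0.27, 95% interval -0.35 to 0.83, limma adjusted p = 0.768). GCLM read 9.80, 10.70 and 10.77 under mock and 10.16 and 10.42 under FK866, a log2 fold change of -0.14 (SE 0.34, 95% interval -0.88 to 0.60). For GCLM too the groups overlapped.

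The thioredoxin genes behaved alike in that the spread within a treatment was larger than the step between treatments. TXN, the small protein that reduces protein disulfides, read 14.98, 15.45 and 15.49 under mock and 15.06 and 15.56 under FK866 (log2 fold change 0.01, 95% interval -0.43 to 0.44). TXNRD1, the NADPH-dependent selenoenzyme that reduces thioredoxin, read 9.40, 8.06 and 7.08 under mock and 9.18 and 8.01 under FK866. Its log2 fold change was 0.41 with a SE of 0.54 (95% interval -0.76 to 1.58), the widest interval of the 9 genes after NQO1. The 2 arrays of scan session 1 gave the higher TXNRD1 values, 9.40 under mock and 9.18 under FK866, and the 3 of session 2 lay at 8.06 or below.

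SOD1, the cytosolic copper and zinc superoxide dismutase, read 16.92, 16.98 and 16.76 under mock and 16.98 and 17.07 under FK866 (log2 fold change 0.14, 95% interval -0.31 to 0.58). SOD2, its mitochondrial manganese counterpart, read 13.26, 13.21 and 13.23 under mock and 13.12 and 13.35 under FK866. For SOD2 the fitted difference was -0.00013 on the log2 scale (95% interval -0.33 to 0.33). CAT, the peroxisomal catalase, read 12.51, 11.74 and 12.06 under mock and 12.40 and 12.00 under FK866 (log2 fold change 0.10, 95% interval -0.44 to 0.64). In all 3 genes of peroxide and superoxide removal the treatments overlapped.

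HMOX1, which opens the heme ring and is among the most inducible NRF2 targets, was dim in these cells: 4.93, 5.17 and 5.35 under mock and 5.25 and 5.33 under FK866 (log2 fold change 0.14, 95% interval -0.30 to 0.57). NQO1, the quinone reductase often used as a readout of NRF2, read 4.88, 4.11 and 3.25 under mock and 4.69 and 4.74 under FK866. Its log2 fold change of 0.63 had a SE of 1.91, since the fit's spread for NQO1 is set by 1 CEM RES array described below. With the NQO1 spot of both CEM RES replicate 2 arrays left out, the SE was 0.42. The intervals of SOD2, TXN, HMOX1 and SOD1 reached no further than 0.58 from 0 on the log2 scale, and those of TXNRD1 and NQO1 were wider.

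The 2 scan sessions of CEM PA each held both treatments. Within session 1 (1 array each) the log2 difference of FK866 and mock was 0.65 for GCLC, 0.36 for GCLM, 0.32 for HMOX1 and -0.23 for TXNRD1. Within session 2 (1 FK866 and 2 mock arrays) it was -0.0024 for GCLC, -0.32 for GCLM, 0.07 for HMOX1 and 0.43 for TXNRD1. GCLM, TXNRD1, NQO1, SOD2 and CAT had opposite signs in the 2 sessions, and GCLC was near 0 in session 2. With the replicate number as a block, still 0 of the 9 probes were called in CEM PA.

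In CEM RES, FK866 likewise changed none of the 9 probes past the test, and 0% of all 22751 probes passed it. The double threshold, passed by 1.3% of all probes (295), called none of the 9, and at an unadjusted p under 0.05 the count was 0 of 9 against 5.15% of all probes. SOD2 read 13.77, 13.89, 14.10 and 13.90 under mock and 13.82, 13.98, 13.95 and 13.96 under FK866, a log2 fold change of 0.01 (95% interval -0.24 to 0.27). SOD1 read 17.11, 17.70, 17.34 and 17.19 under mock and 17.18, 17.64, 17.34 and 17.19 under FK866 (log2 fold change 0.0041, 95% interval -0.34 to 0.35). For SOD1 the value of each replicate number was nearly the same under both treatments, and replicate 2 was the highest in each.

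TXN in CEM RES read 15.80, 15.73, 15.86 and 15.67 under mock and 15.75, 15.69, 15.89 and 15.57 under FK866 (log2 fold change -0.04, 95% interval -0.38 to 0.30). TXNRD1 read 9.22, 8.93, 9.57 and 8.86 under mock and 8.84, 8.97, 9.24 and 8.47 under FK866 (log2 fold change -0.27, 95% interval -1.17 to 0.64). The groups of both genes overlapped. GCLC read 10.76, 10.98, 10.35 and 10.25 under mock and 10.62, 10.74, 10.22 and 10.41 under FK866 (log2 fold change -0.09, 95% interval -0.55 to 0.37). GCLM read 11.38, 11.04, 10.58 and 10.52 under mock and 11.33, 10.69, 10.61 and 10.63 under FK866 (log2 fold change -0.06, 95% interval -0.64 to 0.51). All FK866 values of both subunits lay inside the mock range except GCLC on replicate 3.

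HMOX1 in CEM RES read 4.79, 4.39, 4.80 and 4.32 under mock and 4.49, 4.60, 4.81 and 4.70 under FK866 (log2 fold change 0.08, 95% interval -0.26 to 0.41). CAT read 12.20, 11.84, 12.46 and 12.31 under mock and 12.21, 12.04, 12.39 and 12.41 under FK866 (log2 fold change 0.06, 95% interval -0.35 to 0.48). Neither gene separated the treatments. CEM RES held both treatments on each of its 2 slides. GCLM was lower under FK866 on slide 5 (-0.55) and higher on slide 6 (0.42), and GCLC likewise (-0.30 and 0.12).

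NQO1 needs its spot beside its value. Its log2 signal in CEM RES was 3.61, 11.72, 4.00 and 3.73 under mock and 4.04, 6.02, 3.14 and 4.10 under FK866, so mock replicate 2 stood far above the other mock arrays. On mock replicate 1 the spot was not well above background. On mock replicate 2 the median pixel signal of the NQO1 spot was 4411.5, and an adjacent spot for OR4Q3, an olfactory receptor gene, had 2748.0 and an adjacent spot for TMEM207 3968.0. On FK866 replicate 2 the same 3 spots had 129.0, 156.5 and 176.0. On the other 11 arrays they lay at 35.0 to 82.5 for NQO1, 40.5 to 97.0 for OR4Q3 and 27.0 to 77.0 for TMEM207. Feature Extraction did not mark the NQO1 spot as an outlier on any array. The part of this bright area in the NQO1 value was not tested.

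**Figure D2:**
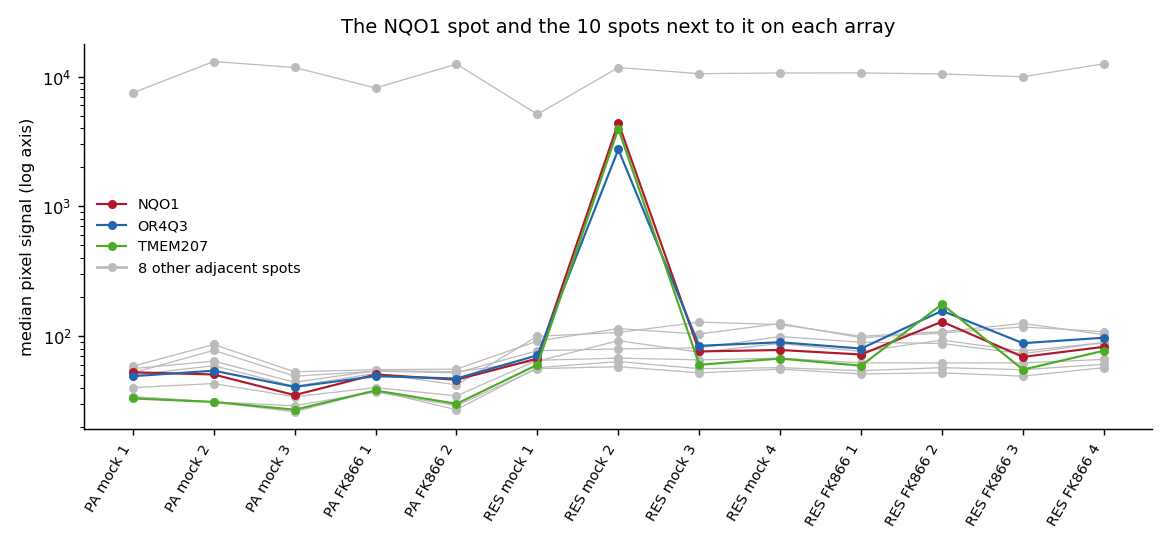
Median pixel signal (log axis) of the NQO1 spot and the 10 spots next to it on each array. NQO1, OR4Q3 and TMEM207 rose together on CEM RES mock replicate 2 (4411.5, 2748.0 and 3968.0), and on CEM RES FK866 replicate 2 all 3 were also above their range on the other 11 arrays, while the other adjacent spots stayed near theirs.

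With all arrays, NQO1 had a log2 fold change of -1.44 for FK866 in CEM RES (SE 1.48, limma adjusted p = 0.989). Without CEM RES mock replicate 2 it was 0.55. Mock-treated CEM RES exceeded CEM PA by 1.68 on the log2 scale with all arrays (SE 1.59, adjusted p = 0.408). With the NQO1 spot of both replicate 2 arrays left out, the difference was -0.30 (SE 0.38, adjusted p = 0.539). NQO1 passed the test under neither.

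The difference between the responses of the lines to FK866 was tested as an interaction. None of the 9 probes passed it, against 0.413% of all probes tested (94 probes), nor the double threshold, which 8.03% of all probes passed, and none had an unadjusted p under 0.05 (12.1% of all probes). The median interaction over the 9 probes was -0.06 on the log2 scale, beside -0.02 over all probes. The most negative value was that of NQO1, -2.07 with a SE of 2.41, and it was -0.08 without CEM RES mock replicate 2 and -0.65 with the NQO1 spot of both replicate 2 arrays left out.

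The lines themselves differed in 4 of the 9 probes under mock, SOD2, SOD1 and TXN higher and HMOX1 lower in CEM RES. Of all 22751 probes, 47.6% passed this test, 24.9% higher and 22.7% lower, so the share of the 9 genes was near that of the array. None of the 4 passed the double threshold, which 35.6% of all probes passed. The median log2 difference of the 9 probes was 0.46, beside 0.04 over all probes.

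SOD2 differed most reliably. Its CEM RES mock mean was 13.91 ± 0.14 (SD, n = 4) and its CEM PA mock mean 13.23 ± 0.03 (SD, n = 3), a log2 difference of 0.68, or 1.60-fold (SE 0.13, limma adjusted p = 0.000957). The groups did not overlap, and the call held under all 25 alternatives, between 0.62 and 0.73. SOD1 was 17.33 ± 0.26 (SD, n = 4) in CEM RES and 16.89 ± 0.12 (SD, n = 3) in CEM PA, a log2 difference of 0.45 (SE 0.17, adjusted p = 0.0475). The groups of SOD1 did not overlap, but its call was lost in 17 of 25 alternatives, at adjusted p values of up to 0.140.

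TXN was 15.77 ± 0.08 (SD, n = 4) in CEM RES and 15.30 ± 0.28 (SD, n = 3) in CEM PA, a log2 difference of 0.46 (SE 0.17, adjusted p = 0.0382). The groups did not overlap, and the call was lost in 11 of 25 alternatives. Without CEM PA mock replicate 1, the array of session 1, the TXN difference was 0.30 (adjusted p = 0.172). HMOX1 was the gene that was lower: 4.57 ± 0.26 (SD, n = 4) in CEM RES and 5.15 ± 0.21 (SD, n = 3) in CEM PA, a log2 difference of -0.58 (SE 0.17, adjusted p = 0.0134). The HMOX1 groups did not overlap, but the call was lost in 3 of 25 alternatives. Scaled to the 75th percentile it was -0.21 (adjusted p = 0.547), after normexp background correction -0.16 (adjusted p = 0.112), and without CEM PA mock replicate 3 -0.48 (adjusted p = 0.0585). The normexp correction adds an offset of 50 to each intensity before the log2 step. This makes the differences of dim probes smaller by construction. Within an array the 9 or 10 usable HMOX1 spots had a SD of 0.096 to 0.80 on the log2 scale, against 0.043 to 0.13 for those of CAT.

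The other genes did not pass. GCLC differed by -0.47 (SE 0.23, adjusted p = 0.105), GCLM by 0.46 (SE 0.29, adjusted p = 0.207), TXNRD1 by 0.96 (SE 0.45, adjusted p = 0.0961) and CAT by 0.10 (SE 0.21, adjusted p = 0.722). The interval of TXNRD1 reached from -0.01 to 1.94 and that of CAT from -0.35 to 0.55. GCLC passed with array weights (-0.79, adjusted p = 0.00996) and without CEM RES mock replicate 2 (-0.61, adjusted p = 0.0474), and was -0.26 without CEM PA mock replicate 2. GCLC and GCLM, the 2 subunits of 1 enzyme, had fitted differences of opposite sign.

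**Figure D3:**
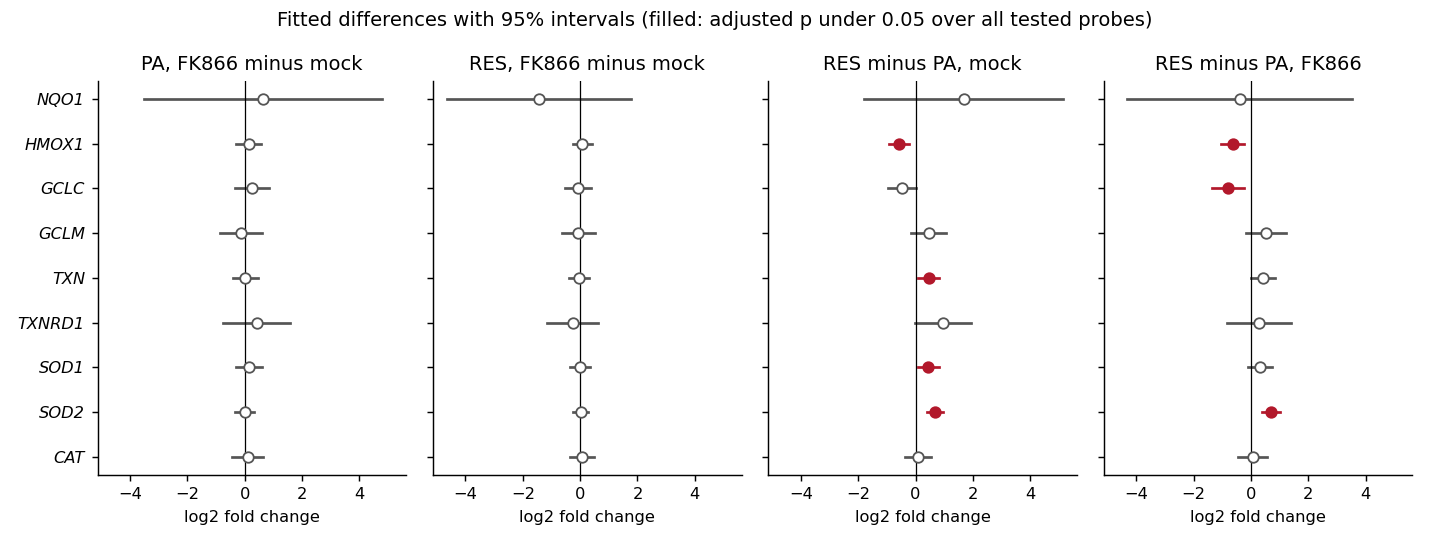
Fitted log2 fold changes with 95% intervals of the 9 probes tested, for FK866 against mock in each line and for CEM RES against CEM PA under each treatment. Filled points passed an adjusted p of 0.05 over all 22751 probes: none for FK866 in either line, SOD2, SOD1, TXN and HMOX1 between mock-treated lines, and SOD2, HMOX1 and GCLC between FK866-treated lines.

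Since line and session cannot be told apart, the difference between the 2 CEM PA sessions was set beside that between the lines. Session 1 held the replicate 1 pair and session 2 replicates 2 and 3, so session and replicate cannot be told apart in CEM PA. With treatment in the model, session 2 minus session 1 was -1.55 for TXNRD1 (SE 0.33, limma adjusted p = 0.0525), 0.49 for TXN (SE 0.15, adjusted p = 0.136), 0.65 for GCLM and -0.52 for CAT. It was 0.01 for SOD1 and 0.07 for SOD2. Of all probes, 1.18% passed this test (269). For TXN, TXNRD1, GCLM and CAT the step between the CEM PA sessions was larger than the difference between mock-treated lines, and for SOD2, SOD1, HMOX1 (0.22) and GCLC (0.21) it was smaller.

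Set against the session 1 array alone, the CEM RES mock mean differed from CEM PA mock by 0.65 for SOD2, 0.41 for SOD1, 0.79 for TXN and -0.35 for HMOX1. Against the 2 session 2 arrays it differed by 0.70, 0.46, 0.30 and -0.69 in the same order. TXNRD1 changed its direction, from -0.26 against session 1 to 1.58 against session 2, and CAT from -0.31 to 0.30. Without CEM PA mock replicate 1, TXNRD1 passed the test (log2 difference 1.58, adjusted p = 0.00553). GCLM was 1.08 above the session 1 array and 0.15 above those of session 2.

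**Figure D4:**
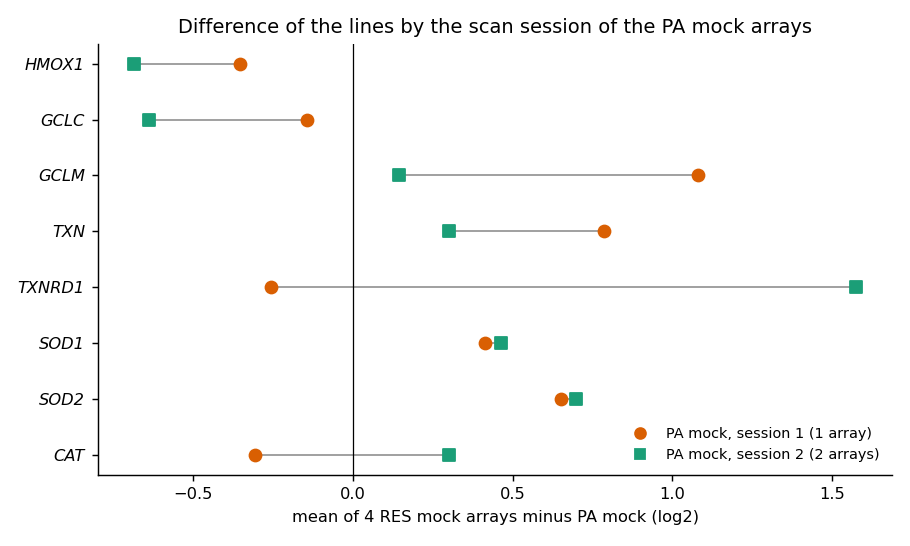
Mean of the 4 CEM RES mock arrays minus CEM PA mock on the log2 scale, taken against the 1 array of session 1 (circles) or the mean of the 2 arrays of session 2 (squares), for 8 genes (NQO1 left out). SOD2 (0.65 and 0.70) and SOD1 (0.41 and 0.46) had nearly the same difference against both sessions, and TXNRD1 went from -0.26 to 1.58.

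Under FK866 the lines differed in 3 of the 9 probes, SOD2 higher and GCLC and HMOX1 lower in CEM RES, against 36% of all probes (18% higher and 18% lower). GCLC alone passed the double threshold, which 30.7% of all probes passed. SOD2 was 13.93 ± 0.07 (SD, n = 4) in CEM RES and 13.23 ± 0.16 (SD, n = 2) in CEM PA, a log2 difference of 0.69 (SE 0.14, limma adjusted p = 0.00293). GCLC was 10.50 ± 0.23 (SD, n = 4) against 11.30 ± 0.12 (SD, n = 2), a log2 difference of -0.80 or 1.75-fold (SE 0.26, adjusted p = 0.0286). HMOX1 was 4.65 ± 0.14 (SD, n = 4) against 5.29 ± 0.06 (SD, n = 2), a log2 difference of -0.64 (SE 0.19, adjusted p = 0.0205). The groups of these 3 genes did not overlap. The HMOX1 difference was again smaller with scaling to the 75th percentile (-0.14, adjusted p = 0.742) and after normexp correction (-0.18, adjusted p = 0.131). GCLC lost its call in 5 of 25 alternatives, at adjusted p values of up to 0.169. With 2 CEM PA arrays, the count fell to 0 without CEM PA FK866 replicate 1 and to 1 without replicate 2.

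TXN, SOD1 and GCLM also did not overlap between FK866-treated lines, with log2 differences of 0.42 (adjusted p = 0.108), 0.31 (adjusted p = 0.231) and 0.53 (adjusted p = 0.222), but none of them was called. The TXN difference was 0.17 without CEM PA FK866 replicate 1 and 0.67 without replicate 2. TXNRD1 differed by 0.29 (SE 0.51), CAT by 0.06 (SE 0.24) and NQO1 by -0.39 (SE 1.81). With the NQO1 spot of both CEM RES replicate 2 arrays left out, the NQO1 difference was -0.95 (SE 0.42, limma adjusted p = 0.106). Against the session 1 and the session 2 array of CEM PA in turn, GCLC differed by -0.89 and -0.72, SOD2 by 0.81 and 0.58 and HMOX1 by -0.60 and -0.68. The direction of these 3 was the same against either array.

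The wider network was read from 87 related genes in 7 lists, of which 73 had a probe that passed the filter. Under FK866 none of the 73 was called in CEM PA (median log2 fold change 0.04, beside -0.0030 over all probes) or in CEM RES (median -0.04, beside -0.02), and none in the interaction. With the replicate number as a block, which treats samples of the same number as pairs, 3 were called in CEM PA (GLRX2 0.98, MGST2 -1.12 and PRDX4 -0.71) and 1 in the interaction (MGST2 1.11). Between mock-treated lines 36 of the 73 were called, 13 higher and 23 lower in CEM RES, a share near the 47.6% of the array. The median log2 difference was -0.29, beside 0.04 over all probes. Under FK866 the lines differed in 35 of the 73 genes, 10 higher and 25 lower (median -0.18, beside 0.06), against 36% of all probes, 18% higher and 18% lower. The count was 17 without CEM PA FK866 replicate 1 and 22 without replicate 2. The counts between the lines include AKR1B10, AKR1C1 and BLVRB. Their probes passed the filter only through groups in which they were high, so their calls are not independent of the filter. GSTM3, counted as lower in CEM RES mock, passed the filter only through CEM PA FK866.

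**Figure D5:**
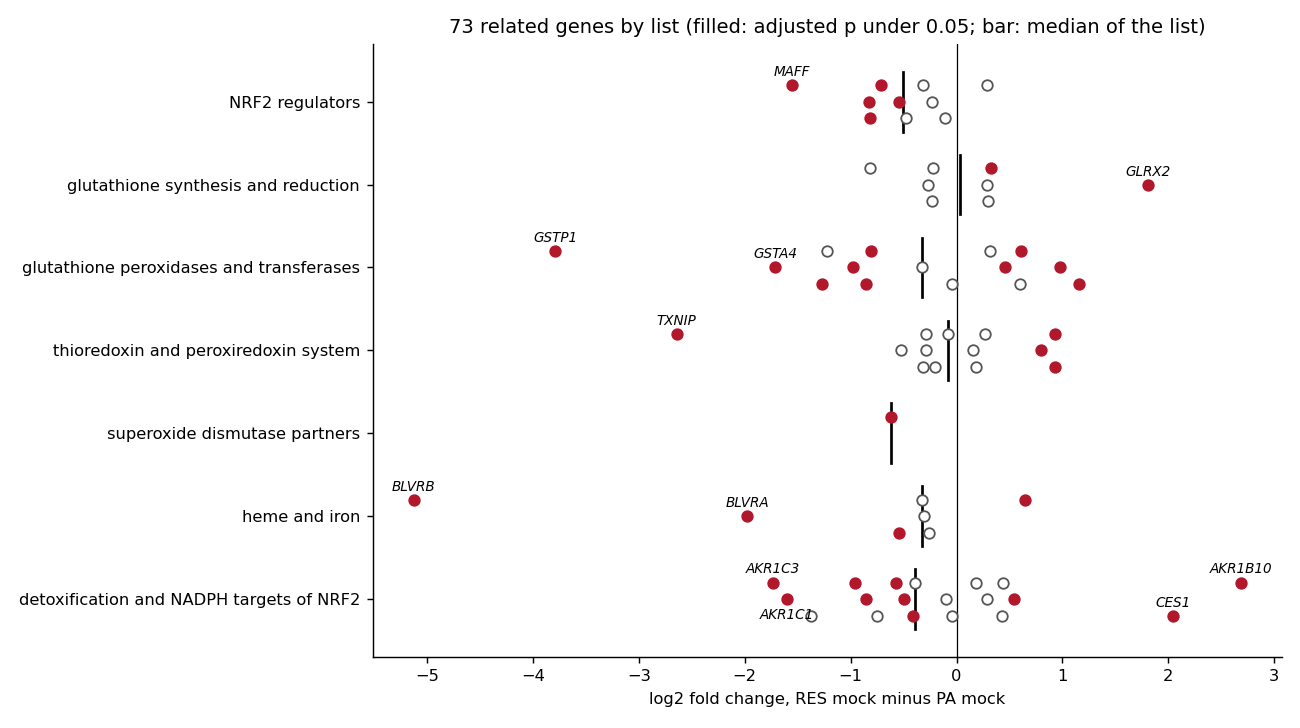
Log2 difference of CEM RES mock and CEM PA mock for each of the 73 related genes tested, by list, with called genes filled and the median of each list as a bar. BLVRB (-5.12), GSTP1 (-3.79) and TXNIP (-2.64) stand farthest below 0, and CES1 (2.05) and GLRX2 (1.81) far above it. AKR1B10 is drawn at its fitted value although its probe was not well above background on any CEM PA mock array, so its place in the order is not known. The points of AKR1B10, AKR1C1 and BLVRB are filled, but their probes passed the filter only through groups in which they were high. GSTM3, also filled, passed it only through CEM PA FK866.

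Of 10 regulators and partners of NRF2, all tested, 5 were called and all were lower in CEM RES mock (median -0.51). This count is near the 47.6% of all probes called between mock-treated lines (24.9% higher and 22.7% lower). These shares are the background of the mock counts in the lists that follow. For the FK866 counts the background is 36% of all probes (18% higher and 18% lower). The 5 genes included MAFF, a small MAF partner (log2 difference -1.55, limma adjusted p = 0.000391, and -0.98 after normexp correction). SQSTM1, the autophagy receptor that binds KEAP1 (-0.83), and NFE2L1, a relative of NRF2 that governs proteasome genes (-0.82), were also among them. BACH1, a repressor at the same elements, was not called by its brighter probe (-0.23) and was higher by its dimmer one (1.11, adjusted p = 0.00358). CUL3, which acts with KEAP1, was 1 of the 5 genes and was lower by each of its probes (-0.71, adjusted p = 0.00201, and -1.24, adjusted p = 0.0192). BACH2 was another (-0.54), but its other probe was not called (0.26). KEAP1 was not called. It read 11.60 ± 0.09 (SD, n = 3) in CEM PA mock and 11.49 ± 0.13 (SD, n = 4) in CEM RES mock. Under FK866 again 5 of the 10 were lower and none higher, with MAFF at -1.49, NFE2L1 at -0.98 and MAFG at -0.75. One of the 5 was BACH1 by its brighter probe (-0.48, adjusted p = 0.0488), whose dimmer probe was again higher (1.04, adjusted p = 0.0142).

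Among 8 genes of glutathione synthesis and reduction, 2 were called, both higher in CEM RES mock: GLRX2, the mitochondrial glutaredoxin (1.81, adjusted p = 0.000171), and GLRX, its cytosolic relative (0.32, adjusted p = 0.0344), whose call was lost in 14 of 25 alternatives. The list's median was 0.03. GLRX2 read 8.45 ± 0.13 (SD, n = 3) in CEM PA mock and 10.26 ± 0.31 (SD, n = 4) in CEM RES mock. Under FK866 GLRX was higher (0.58) and GSR, glutathione reductase, lower (-0.92) in CEM RES. The 2 GSR probes disagreed: the dimmer one was not called under FK866 (0.21) and was higher in CEM RES mock (0.89, adjusted p = 0.0193).

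Of 22 glutathione peroxidases and transferases, 15 could be tested and 10 were called between mock-treated lines, 4 higher and 6 lower in CEM RES (median -0.32). The peroxidases that were called higher were GPX2 (1.16), GPX1 (0.97) and GPX4 (0.61), the last of which removes lipid peroxides, and GPX7 was called lower (-0.98). GPX2 was well above background on 2 of 3 CEM PA mock arrays, and its difference was 0.45 after normexp correction. Of the transferases GSTO1 was called higher (0.46), and those called lower were led by GSTP1, which read 8.52 ± 0.24 (SD, n = 3) in CEM PA mock and 4.73 ± 0.09 (SD, n = 4) in CEM RES mock. This is a log2 difference of -3.79, or 13.8-fold (SE 0.16, adjusted p = 1.36e-07), and under FK866 it was -3.92. After normexp background correction the GSTP1 difference was -2.12. GSTA4 (-1.71) was also lower. GSTM3 was called lower (-1.27) with groups that overlapped, and the call was lost in 4 of 24 alternatives, with a smallest difference of -0.18. The GSTM genes are related in sequence, and whether their probes share target was not tested. GSTM3 was well above background on 2 of 4 CEM RES mock and 2 of 3 CEM PA mock arrays only. Its probe passed the filter only through CEM PA FK866 (2 of 2 arrays), so its call is not independent of the filter.

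Of 15 genes of the thioredoxin and peroxiredoxin system, 13 could be tested and 4 were called (median -0.08). PRDX1 and PRDX2, peroxiredoxins that thioredoxin reduces, were both higher in CEM RES mock by 0.93 (adjusted p = 0.000179 and 0.00293). TXN2, the mitochondrial thioredoxin, was higher by 0.79 (adjusted p = 0.00597). TXNIP, which binds and inhibits thioredoxin, was lower: 12.81 ± 0.38 (SD, n = 4) in CEM RES mock against 15.45 ± 0.48 (SD, n = 3) in CEM PA mock, a log2 difference of -2.64, or 6.25-fold (adjusted p = 1.11e-05). Under FK866, 2 of the 13 were higher (PRDX1 0.70, PRDX2 0.68) and 4 lower, TXNIP again the lowest (-3.23). PRDX2 lost its call there in 11 of 25 alternatives, at adjusted p values of up to 0.169. TXNL1, a thioredoxin-like protein counted as lower (-0.56), had another probe that was called higher (2.11, adjusted p = 0.00722).

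CCS, the copper chaperone of SOD1, was the only tested gene of the 2 listed partners of the dismutases and was lower in CEM RES mock (-0.62, adjusted p = 0.00122) while SOD1 itself was higher. Of 7 genes of heme and iron handling, 4 were called, 1 higher and 3 lower (median -0.32). One of the lower genes was SLC48A1, a heme transporter (-0.54), whose call was lost in 9 of 25 alternatives and whose other probe was called higher (0.67, adjusted p = 0.0213). The 2 biliverdin reductases, which act after HMOX1, were both lower, BLVRB with a log2 difference of -5.12 and BLVRA of -1.98 (adjusted p = 0.000123 and 3.66e-05). BLVRB read 8.86 ± 0.46 (SD, n = 3) in CEM PA mock, and in CEM RES mock 2 of 4 arrays were well above background. Its probe passed the filter only through the CEM PA groups, in which it was high. The BLVRB log2 difference was -2.71 after normexp correction. HMOX2, the constitutive heme oxygenase, was called higher (0.64), but its groups overlapped and the call was lost in 8 of 25 alternatives. The ferritin chains FTL (-0.31) and FTH1 (-0.26) did not pass under mock, and FTL was lower under FK866 (-0.87).

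Of 23 detoxification and NADPH genes, 19 could be tested and 10 were called in mock, 3 higher and 7 lower in CEM RES (median -0.39). The counts include AKR1B10 and AKR1C1, which passed the filter only through groups in which they were high. The aldo-keto reductase AKR1C3 read 12.77 ± 0.39 (SD, n = 3) in CEM PA and 11.04 ± 0.37 (SD, n = 4) in CEM RES (log2 difference -1.73, adjusted p = 0.000148). AKR1C1, a related gene, was by its brighter probe well above background on 3 of 3 CEM PA mock and 0 of 4 CEM RES mock arrays. A bound was taken as the CEM PA mean over the lowest signal well above background on each CEM RES array. The probe's own signal was used where that was higher. By this bound AKR1C1 was at least 1.73-fold lower in CEM RES mock. It passed the filter only through the CEM PA groups, in which it was high, so no test is given for the bound. The call of its fitted difference, which the count above includes, was lost in 3 of 24 alternatives. The other AKR1C1 probe, the dimmer one, had a fitted log2 difference of -3.26. The groups through which it passed the filter are not given here, so no test is given for it either. UGDH, which makes the sugar donor of glucuronidation, was lower (log2 difference -0.96). In the other direction AKR1B10 was not well above background on any CEM PA mock array and was on 4 of 4 CEM RES mock arrays, at least 2.90-fold higher by the same bound. It passed the filter only through CEM RES mock, the group in which it was high, so no test is given. Both bounds hold for quantile normalised signals, and after normexp correction the fitted log2 differences were 0.42 for AKR1B10 and -0.28 for AKR1C1. CES1, a carboxylesterase, was higher by 2.05 (1.13 after normexp correction) and ABCC1, an exporter of glutathione conjugates, by 0.54. PGD, an NADPH-making enzyme of the pentose phosphate pathway, was not called (0.44).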

How the data were processed

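RNA on 13 1-colour Agilent Human GE 4x44K v2 arrays was scanned and read with Agilent Feature Extraction 10.7.7.1, named in the submitters' processing notes. The authors deposited the intensity of each spot, background-subtracted and detrended within the array but not normalised between arrays, and a table of log2 values quantile normalised over all arrays, used here as an alternative. No column was left unmapped to a sample.

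Intensities were put on the log2 scale with outlier spots set to missing, control spots removed and arrays quantile normalised together, as in the study's methods, and spots of a probe were averaged. Detection followed the well-above-background flag. Dim signals therefore carry the background treatment in them. One limma 3.58.1 model (R 4.3.3) held the 4 groups (prior degrees of freedom 3.25, residual 9), with Benjamini-Hochberg adjustment over all 22751 kept probes. All single-probe p values are limma's moderated two-sided test. The fit was tested on simulated data. Arrays give no counts, so their number limits the precision.

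The genes and lists were chosen with earlier results of these data known. Every one of the 10 genes is named. A related gene was counted by its brightest kept probe, and up to 3 called genes per list and direction were named by largest change. Added after their values were seen were FTL, FTH1, KEAP1, CUL3, BACH1, BACH2, GPX7, GSTO1, MGST2, PRDX4 and PGD. Genes with a profile like that of NFE2L2 were not sought, since its probe was not detected. Samples with the same replicate number deviated together in each of the 6 FK866 and mock pairs (correlations 0.20 to 0.47 over kept probes). The numbers were therefore taken to pair the samples, but the main fit has no term for pairs. In CEM PA, pairing cannot be told apart from scan session: FK866 replicate 2 also correlated with mock replicate 3 of its session (0.26). The 2 CEM PA FK866 arrays deviate from their mean by equal and opposite amounts, so the CEM PA pairs are not separate evidence. Alternatives covered scaling, background, filter, outlier spots, probe choice, the deposited table and the groups fitted. Others took slide, scan session or replicate as a block, used array weights or left out each array. The background alternative was normexp with an offset of 50, which makes log2 differences of dim probes smaller by construction. Added after seeing the data were fits without both CEM RES replicate 2 arrays or without their NQO1 spots. Sequences were read from the deposited files and from RefSeq promoters with Python 3.11.15.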

Additional observations from a re-analysis of the deposited data

Results flagged for a closer look

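In 18 groups of 4 CEM RES arrays (9 probes under each treatment), 3 values stood apart from the other 3 arrays by Dixon's ratio at its 95% level, which chance passes in about 1 in 20 groups. NQO1 on mock replicate 2 read 11.72 on the log2 scale, with a ratio of 0.952. GCLM on FK866 replicate 1 read 11.33 (ratio 0.894), and the mock array of the same number was also the highest of its group (11.38). SOD2 on FK866 replicate 1 read 13.82 (ratio 0.861), the lowest of its group and above every CEM PA array.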

How the results depend on the processing

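The number of arrays, with 2 for CEM PA FK866, and the signal over background of NFE2L2, HMOX1 and NQO1 set the limits. Under scaling to the 75th percentile the median log2 difference over all probes went from 0.04 to 0.17 between mock-treated lines, and between FK866-treated lines from 0.06 to 0.20. No probe of the 9 was called for FK866 in either line or in the interaction under any alternative. The count of 4 called between mock-treated lines was 2 after normexp correction, 2 without a filter, 2 with only the compared groups fitted, 2 without both CEM RES replicate 2 arrays, and 2 to 4 with 1 array left out. It was 2 without CEM PA mock replicate 3, CEM RES mock replicate 3 or CEM RES mock replicate 4. The count of 3 between FK866-treated lines was 0 to 3 with 1 array left out. Related genes called there ranged from 17 to 37 of 73 with 1 array left out, with 17 without CEM PA FK866 replicate 1 and 22 without replicate 2.

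For FK866 in CEM PA, related genes called rose from 0 to 2 after normexp correction (MGST2 and PRDX4), 1 with the strict filter (MGST2), 5 with array weights, and 3 with the replicate block (GLRX2 0.98, MGST2 -1.12, PRDX4 -0.71). The replicate block also called 1 in the interaction (MGST2 1.11). It changed no other call of the 9 genes or their relatives for FK866 in either line or in the interaction. The differences between the lines were not fitted with this block. Over all probes the replicate block raised the calls for FK866 in CEM PA from 348 to 1218. The 348 calls were 3 with only the compared groups fitted and 1411 with array weights. In the interaction the calls over all probes went from 94 to 486 with the replicate block. No counts are given with slide as a block, since it leaves 1 array of each treatment to compare in CEM PA.

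Differences that were not called in the main fit changed sign, and not all of them lay near 0. In the main fit NQO1 was 1.68 between mock-treated lines. For FK866 NQO1 was -1.44 in CEM RES and 0.63 in CEM PA, and TXNRD1 was 0.41 in CEM PA. With scaling to the 75th percentile, the log2 fold change for FK866 in CEM PA was -0.036 for HMOX1 and 0.11 for SOD2, that in CEM RES was -0.14 for SOD1 and -0.024 for SOD2, and that between FK866-treated lines was -0.016 for CAT and 0.19 for NQO1. After normexp correction TXN was -0.032 in CEM PA and 0.070 in CEM RES, and SOD2 -0.015 in CEM RES. For SOD2 in CEM PA the value was 0.015 in the deposited table, 0.0023 with outlier spots kept, 0.012 with scan session as a block and 0.013 with array weights, which also gave -0.0707 for TXN in CEM PA and 0.036 for GCLC and 0.072 for GCLM in CEM RES. With slide as a block CEM PA gave -0.10 for CAT, 0.36 for GCLM, -0.19 for NQO1 and -0.23 for TXNRD1. In CEM PA only slide 1 held FK866 and mock, 1 array of each, so these values are those of scan session 1 alone. With the replicate block CEM PA gave 0.035 for GCLM and -0.14 for TXNRD1. Without both CEM RES replicate 2 arrays, FK866 in CEM RES gave 0.030 for GCLM and -0.011 for SOD2, and NQO1 between mock-treated lines was -0.30, as it was without these 2 spots alone.

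With 1 array left out, FK866 in CEM PA ranged from -0.45 to 0.035 for GCLM, -0.24 to 0.26 for TXN, -0.18 to 1.02 for TXNRD1, -0.12 to 0.12 for SOD2 and -0.10 to 0.30 for CAT. In CEM RES it ranged from -2.16 to 0.55 for NQO1, -0.0091 to 0.15 for HMOX1, -0.20 to 0.045 for GCLC, -0.24 to 0.10 for GCLM, -0.094 to 0.011 for TXN, -0.10 to 0.13 for SOD1, -0.0351 to 0.0737 for SOD2 and -0.056 to 0.15 for CAT. Between mock-treated lines NQO1 ranged from -0.30 to 2.40 and CAT from -0.082 to 0.30, and between FK866-treated lines NQO1 from -0.95 to 0.00884, TXNRD1 from -0.30 to 0.87 and CAT from -0.14 to 0.26.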
